A study of Mus musculus with 15 samples.

Results

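The genes of the CD4 and CD8 coreceptors, Cd4, Cd8a and Cd8b1, were examined in EL4 cells by listing every called interval of 5 histone marks and of accessible chromatin around them. The 3 genes were taken by name from 21631 protein-coding RefSeq genes, and each was extended by 40 kb on both sides so that its regulatory surroundings were included. EL4 is a murine T lymphoblast line, derived from a lymphoma of a C57BL/6N mouse according to the labels, and all libraries come from untreated cells of this single line. ChIP-seq was performed for H3K4me3, H3K9ac, H3K27ac, H3K27me3 and H3K36me2 on fixed cells, and ATAC-seq on nuclei of the same line, with 2 replicates each. The resulting 12 peak lists give the position of each interval on GRCm38 and no score or read count, so the depth behind an interval is unknown. The study calls the replicates technical where it merges peaks, and the spread between them is therefore not a spread between cultures. With 2 such replicates per set no test was run. A difference between windows is called larger than the spread when their nearest values lie farther apart than the replicates of either window.

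CD4 and CD8 are the surface proteins that bind MHC class II and class I molecules next to the T cell receptor and bring the kinase Lck to it. CD8 is built from an alpha chain, encoded by Cd8a, and often a beta chain, encoded by Cd8b1. Thymocytes pass through a stage without either coreceptor and a stage with both before they keep a single one. Cd4 is known to be controlled by an enhancer upstream of its start and by a silencer in the first intron, and the Cd8 genes by a cluster of enhancers, several of which lie between Cd8b1 and Cd8a. H3K4me3 and H3K9ac usually mark active gene starts, H3K27ac active starts and enhancers, H3K27me3 Polycomb repression, and H3K36me2 broad domains in and around genes. The positions of the known elements are not in the files, so no interval was assigned to one of them.

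All 3 genes lie on chromosome 6. Cd4 spans chr6:124864693-124888247 (23.6 kb), Cd8b1 spans chr6:71322788-71337492 (14.7 kb) and Cd8a spans chr6:71373427-71379171 (5.75 kb). The windows of Cd8b1 and Cd8a overlap, since 35934 bp separate the genes, and their intervals were therefore also counted in a joined window of 136384 bp. The window of Cd4 has 103555 bp. The reference table gives the strand of Cd8a (+) and none for Cd4 and Cd8b1. For the latter genes each end is reported, and it is background knowledge that mouse Cd4 is transcribed from its higher-coordinate end and Cd8b1 from its lower one.

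Active marks were found at T-lineage genes. H3K4me3, H3K9ac and H3K27ac were all present in both replicates at the start of 7 of 8 T-lineage genes (Cd3d, Cd3e, Cd3g, Cd2, Cd5, Thy1 and Cd28, and not Cd247), compared with 0 of 8 B-lineage and 0 of 8 myeloid genes. The same held for 43.7% of all protein-coding genes. These gene lists were chosen with earlier results of these data known, so the counts only describe them. In this count the start is the window from 3 kb upstream to 2 kb downstream, and either gene end where no strand is given. Among the T-lineage genes no strand is given for Cd2, Thy1 and Cd28. Cd79a, a B-lineage gene, and Lyz2 and Csf3r, myeloid ones, have a strand. All of these marks were present in both replicates at the end opposite their start, which did not count. Cd247, which encodes the zeta chain of the T cell receptor complex, had all of these marks in both replicates inside the gene and none at its start. The same was true of Pax5, a B-lineage gene, and of Itgam, a myeloid one.

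Around Cd4, active chromatin lay on both sides of the gene and not in it. None of the 8 lists of H3K4me3, H3K9ac, H3K27ac and ATAC-seq had an interval in the 23555 bp of the Cd4 span. H3K36me2 covered 4447 bp of the span in replicate 1 and 4399 bp in replicate 2 (18.8% ± 0.144 of the span, SD, n = 2). These base pairs lay at the higher-coordinate end, where Cd4 starts. The remaining 18.3 kb of the gene, chr6:124864693-124883000, held no interval of any list. Of all protein-coding genes, 49.9% had H3K4me3 in both replicates within their span, 48.5% H3K9ac, 49.6% H3K27ac and 44.5% ATAC-seq. The share was 42.9% for H3K36me2 and 16.2% for H3K27me3, and 4.06% had H3K36me2 in both replicates and no interval of any other set, as Cd4 did.

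**Figure D1:**
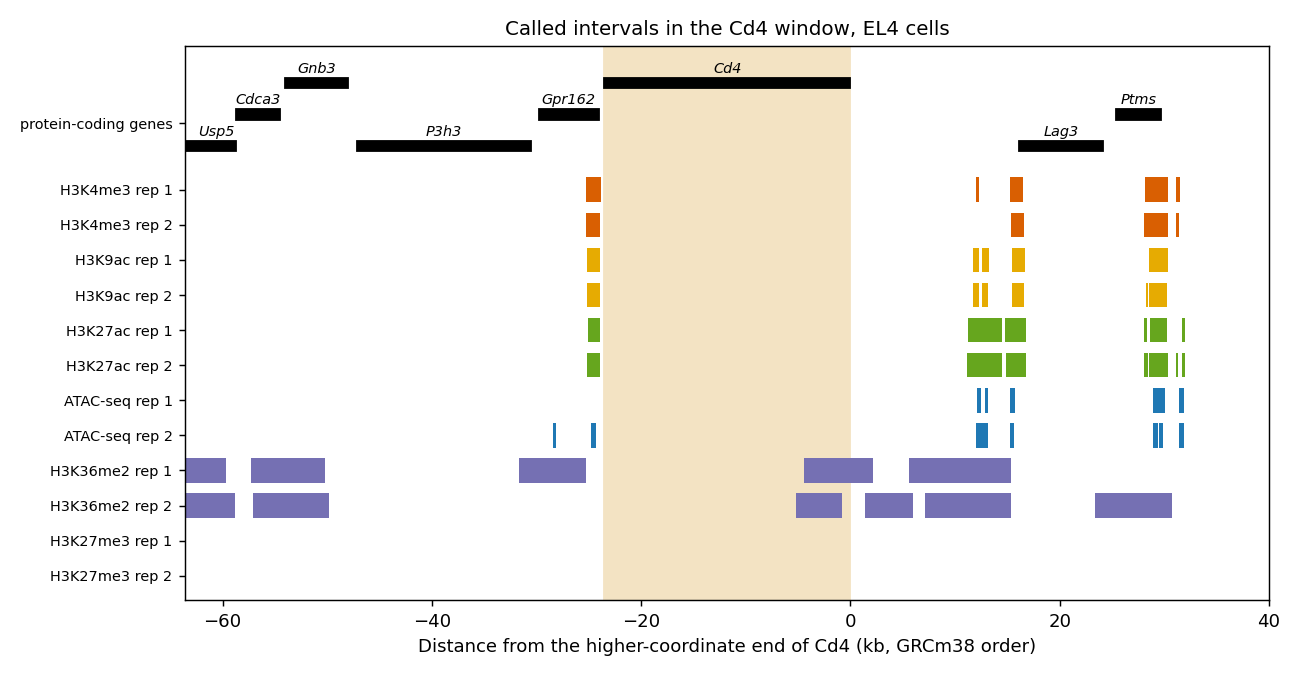
Called intervals of each set and replicate (coloured bars) in the Cd4 window, by distance in kb from the higher-coordinate end of Cd4, with protein-coding genes in black and the Cd4 span shaded. Of the 6 sets only H3K36me2 enters the shaded span, and the bars of the active marks and ATAC-seq stand between Cd4 and Lag3, at and just beyond Ptms, and over Gpr162. Bars of H3K4me3, H3K9ac and H3K27ac also run into the lower-coordinate end of Lag3.

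At the higher-coordinate end of Cd4, a window that reached 3 kb beyond the gene and 2 kb into it held H3K36me2 in both replicates and none of the other 5 sets in either replicate. In replicate 1 an H3K36me2 interval of 6.6 kb, chr6:124883801-124890399, ran over this end. In replicate 2 an interval of 4.4 kb stopped inside the gene, at position 124887399, and the next one, of 4.6 kb, began 1354 bp outside it. The last base of the span was thus covered in replicate 1 alone. As background, 45.3% of the 17274 genes whose strand is known had H3K4me3 in both replicates at the start, 44.6% H3K9ac, 45% H3K27ac and 40.6% ATAC-seq. For H3K36me2 it was 24.4% and for H3K27me3 9.69%.

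The lower-coordinate end of Cd4 lies next to Gpr162, an orphan G protein-coupled receptor gene. Here H3K4me3 intervals of 1406 and 1310 bp were called in replicates 1 and 2, the first at chr6:124862977-124864382. H3K9ac had intervals of 1211 and 1253 bp, and H3K27ac intervals of 1082 and 1258 bp, at the same place. ATAC-seq had an interval of 418 bp in replicate 2 and none in replicate 1. All of these intervals touched Gpr162 and ended between 311 and 773 bp short of Cd4. If either end of Cd4 is accepted, 4 of the 6 sets were present in both replicates, and at the higher-coordinate end alone 1 of 6 was. Over all protein-coding genes, the shares at either end were 47.3% for H3K4me3, 46.5% for H3K9ac, 47.1% for H3K27ac, 42.5% for ATAC-seq, 40.3% for H3K36me2 and 13.6% for H3K27me3. The intervals near Gpr162 thus make up the difference.

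The stretch of 16111 bp between Cd4 and Lag3 held 4659 of the 8573 bp of H3K27ac in the Cd4 window in replicate 1 and 4576 of 9235 bp in replicate 2. Lag3 encodes an inhibitory receptor that is related to CD4 and binds the same MHC class. An H3K27ac interval of 3321 bp in replicate 1, chr6:124899457-124902777, and of 3341 bp in replicate 2, chr6:124899385-124902725, began 11.2 and 11.1 kb outside the higher-coordinate end of Cd4. Only 3.29% of the H3K27ac intervals in each replicate were at least as wide, at medians of 815 and 805 bp. H3K27ac covered 28.9 and 28.4% of the stretch in replicates 1 and 2, H3K9ac 12.4 and 11.2%, ATAC-seq 7.19 and 9.24%, and H3K4me3 7.79 and 4.96%. The order of H3K27ac over H3K9ac over ATAC-seq held in both replicates, whereas H3K4me3 and ATAC-seq changed places between them.

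Within the wide H3K27ac interval, accessible chromatin lay in a pair of sites. ATAC-seq intervals of 402 and 341 bp began 12101 and 12817 bp from the Cd4 end in replicate 1, and in replicate 2 intervals of 783 and 293 bp began at 12046 and 12870 bp. A pair of H3K9ac intervals was called over them in each replicate, of 660 and 682 bp in replicate 1 and of 553 and 633 bp in replicate 2. H3K9ac, H3K27ac and ATAC-seq of both replicates coincided over 177 bp at chr6:124900348-124900524 and over 288 bp at chr6:124901117-124901404, with a further 12 bp between them. H3K4me3 was called at the site nearer to Cd4 in replicate 1 only, with an interval of 372 bp, and at the farther site in neither replicate.

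A further block lay at the lower-coordinate end of Lag3. H3K4me3 intervals of 1310 and 1268 bp, H3K9ac intervals of 1191 and 1056 bp, H3K27ac intervals of 2006 and 1942 bp and ATAC-seq intervals of 415 and 413 bp were called in replicates 1 and 2. Here all 4 sets coincided in both replicates over 180 bp, at chr6:124903735-124903914, which begins 15.5 kb from the Cd4 end. The sites within the wide H3K27ac interval had no such overlap. H3K4me3 was missing from replicate 2 at the site nearer to Cd4 and from both replicates at the farther site. At the higher-coordinate end of Lag3 none of these 4 sets had an interval, and H3K36me2 was called in replicate 2 only. Beyond Lag3, the start of Ptms had H3K4me3 intervals of 2273 and 2336 bp and H3K9ac intervals of 1783 and 1742 bp, together with a pair of ATAC-seq intervals in each replicate. Just beyond Ptms, over the noncoding genes A230083G16Rik and Gm38896, lay shorter intervals of H3K4me3 (428 and 308 bp), H3K27ac (274 and 344 bp) and ATAC-seq (467 and 533 bp) in replicates 1 and 2, with a further H3K27ac interval of 204 bp in replicate 2. Another ATAC-seq interval, of 207 bp, was called within Gpr162 in replicate 2 only.

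H3K36me2 filled most of the stretch between Cd4 and Lag3, with 74.2% of its base pairs in replicate 1 and 79.4% in replicate 2. The intervals of the replicates overlapped less than those of H3K27ac. The Jaccard index, which divides the base pairs that both replicates share by all base pairs of either, was 0.612 for H3K36me2 and 0.952 for H3K27ac. In both replicates the last H3K36me2 interval ended at position 124903599, within the block at Lag3.

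H3K27me3 was not called in the Cd4 window. The nearest H3K27me3 interval was 62 kb from the gene in replicate 1 and 327 kb in replicate 2. Of all protein-coding genes, 49.9% likewise had no H3K27me3 interval of either replicate within 40 kb, so this absence is near the middle of the background.

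The Cd8 genes stood in a stretch without intervals. No list had an interval in Cd8b1, in Cd8a or in the 35934 bp between them. The stretch without any interval of the 12 lists ran over 102 kb, chr6:71283400-71385000, and the stretch without H3K4me3, H3K9ac, H3K27ac or ATAC-seq over 145 kb. Of all protein-coding genes, 23.2% had no interval of any list within their span. At the start of Cd8a 0 of 6 sets were present, as at 32% of the gene starts with a known strand. At both ends of Cd8b1 0 of 6 sets were present, as at 23.8% of all genes when either end was counted. The empty starts were therefore shared with a large part of the genes. The methods state that reads on chromosome X were discarded, while each list holds 331 to 732 intervals there, and the spans of 59% of the X genes were empty. Among autosomal genes alone, a choice made after the data were examined, these shares were 21.5% for the span, 30.3% for the start and 22% for either end.

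**Figure D2:**
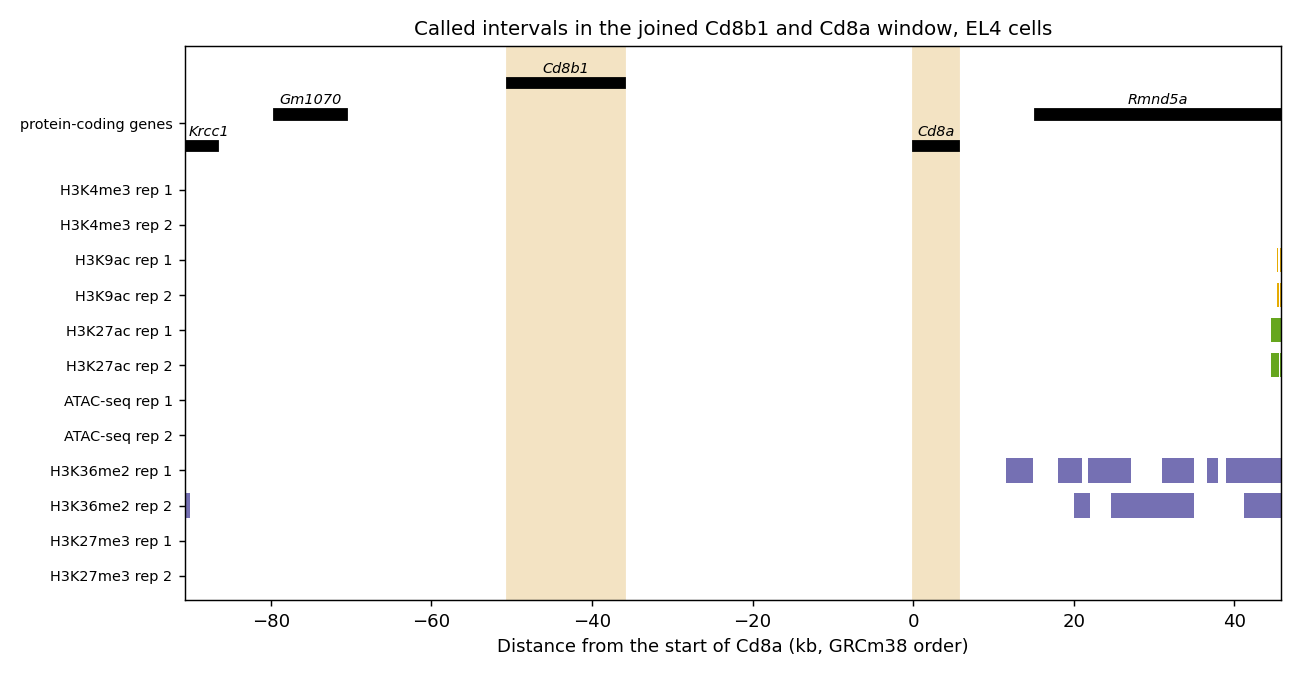
Called intervals of each set and replicate (coloured bars) in the joined window of Cd8b1 and Cd8a, by distance in kb from the start of Cd8a, with protein-coding genes in black and the coreceptor genes shaded. Both shaded genes and the 35934 bp between them are free of bars, and the intervals nearest to Cd8a are H3K36me2 in and beside Rmnd5a, whereas those nearest to Cd8b1 lie over Krcc1 at the left edge.

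Which of the Cd8 genes had the nearer interval depended on the set. H3K36me2, H3K9ac and H3K27ac lay nearer to Cd8a in both replicates, and H3K4me3 and ATAC-seq lay nearer to Cd8b1 in both. H3K27me3 lay nearer to Cd8a in replicate 1 and nearer to Cd8b1 in replicate 2. For Cd8b1 the nearest interval of any list, of H3K36me2 over Krcc1, was 39.4 kb away, and 10.9% of all protein-coding genes were at least as far from any interval. For Cd8a it was an H3K36me2 interval 5.83 kb away in replicate 1, and 17.2% of the genes were at least as far. Among autosomal genes alone these shares were 9.41% for Cd8b1 and 15.4% for Cd8a. In replicate 2 the nearest H3K36me2 interval was 14.2 kb from Cd8a. The nearest H3K4me3 interval was 59.9 kb from Cd8a and between 49.6 and 49.7 kb from Cd8b1 in both replicates. The nearest interval of any active mark or of ATAC-seq was at least as far away for 27% of all genes as for Cd8a, and for 24.7% as for Cd8b1. The nearest ATAC-seq interval was 60.7 to 60.8 kb from Cd8a and 50.4 to 50.8 kb from Cd8b1.

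H3K27me3, the Polycomb mark, was not called at the Cd8 genes either. Its nearest interval was 87.4 and 92.4 kb from Cd8b1 and 74 and 143 kb from Cd8a in replicates 1 and 2. Neither the active marks nor H3K27me3 were thus found at Cd8a or Cd8b1 in any library. Of all protein-coding genes, 49.9% likewise had no H3K27me3 interval of either replicate within 40 kb, so its absence here is also near the middle of the background. Since the lists hold no reads, an unmarked stretch cannot be told apart from a stretch in which few reads were aligned.

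The promoter of Cd8a is shown because its start carried no interval of any list, beside the promoter of Ptms, a neighbour of Cd4 that carried all active marks. Both are from RefSeq on GRCm38.p6, run 5′ to 3′ from 250 bases before to 50 after the start, and have CG dinucleotides in capitals. The sequence of Cd8a is from chr6:71373177-71373476 (+) and that of Ptms, which encodes parathymosin, from chr6:124917897-124918196 (-). Of the 3 coreceptor genes, 1 was matched in the promoter table used here.
Cd8a: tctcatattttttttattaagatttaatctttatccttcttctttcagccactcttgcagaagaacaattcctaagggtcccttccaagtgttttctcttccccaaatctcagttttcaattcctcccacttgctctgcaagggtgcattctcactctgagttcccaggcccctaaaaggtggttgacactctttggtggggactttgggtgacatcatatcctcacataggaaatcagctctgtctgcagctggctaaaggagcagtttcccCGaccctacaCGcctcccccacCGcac
Ptms: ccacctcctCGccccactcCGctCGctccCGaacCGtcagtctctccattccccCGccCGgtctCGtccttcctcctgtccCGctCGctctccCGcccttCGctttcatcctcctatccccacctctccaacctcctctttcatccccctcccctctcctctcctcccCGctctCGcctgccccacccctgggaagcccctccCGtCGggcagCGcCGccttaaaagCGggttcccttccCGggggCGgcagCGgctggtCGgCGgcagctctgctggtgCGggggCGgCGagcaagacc

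The Cd8a promoter held 3 CG dinucleotides and 46.7% G and C, and the Ptms promoter held 27 and 70.3%. The Ptms promoter was touched by H3K4me3, H3K9ac, H3K27ac and ATAC-seq in both replicates. So were the promoters of the neighbours Rmnd5a and Krcc1, which held 37 CG dinucleotides each. The promoters of the neighbours P3h3, Cdca3 and Gm1070 held 11, 10 and 12, and none of the same sets touched them in either replicate. Of 32585 promoters of this length, 31% had 3 or fewer CG dinucleotides, and 3.15% of these were touched by H3K4me3 in both replicates. Of the promoters with more, 45.6% were touched. The corresponding shares were 3.49 and 44.8% for H3K27ac and 1.17 and 38.4% for ATAC-seq. H3K27me3 had the opposite order, with 10.8 and 4.25%, and H3K36me2 had 7.59 and 9.27%. No interval of any of the 12 lists touched 63.6% of the promoters with 3 or fewer CG dinucleotides, as was the case for Cd8a, and 36.3% of those with more. These shares describe promoters within the same libraries, which are not independent replicates.

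Motifs of factors known from T cells were searched in the Cd8a promoter on both strands. The E-box CANNTG was found 3 times, once across the start as CAGCTG, and occurred in 72.3% of all promoters. GGAAG, the core of Ets sites, was found 2 times and occurred in 71.3% of promoters, and 1 of these matches overlaps by 1 base with an E-box. GATAA was found once and occurred in 25.4%. TGTGGT, the core of Runx sites, and TATAAA were not found, and occurred in 16.6 and 13.7% of promoters. In the Ptms promoter only GGAAG was found, 3 times. These matches describe the letters and not binding.

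The intervals within the window of Cd8a all lay in Rmnd5a, a gene for a subunit of a ubiquitin ligase, or in the space between it and Cd8a. H3K36me2 had 6 intervals there in replicate 1 and 3 in replicate 2, which covered 28 and 19.8% of the window. At the edge of the window, inside Rmnd5a, H3K27ac was called in an interval of 1623 bp in replicate 1 and in neighbouring intervals of 1087 and 733 bp in replicate 2. A pair of short H3K9ac intervals, of 200 and 200 bp in replicate 1 and of 250 and 361 bp in replicate 2, lay at the same site. The site begins 38.8 kb from Cd8a, and neither H3K4me3 nor ATAC-seq was called there. With a flank of 20 kb it falls outside, and no active mark is left in the window. The start of Rmnd5a itself, outside the window, had H3K4me3, H3K9ac, H3K27ac and ATAC-seq in both replicates.

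By covered base pairs, the Cd4 window exceeded both Cd8 windows for each active mark. H3K27ac covered 8.28 and 8.92% of the Cd4 window in replicates 1 and 2 (mean 8.6% ± 0.452, SD, n = 2). It covered 1.37 and 1.38% of the Cd8a window and none of the Cd8b1 window, against a median over all protein-coding genes of 1.8 and 1.83%. H3K4me3 covered 5.59 and 5.04% of the Cd4 window and none of the windows of Cd8a and Cd8b1, against medians of 2.05 and 2.01%. The windows of 30.2 and 30.5% of all genes likewise had no H3K4me3. H3K9ac covered 5.34 and 5.25% around Cd4 and 0.264 and 0.306% around Cd8a.

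ATAC-seq covered 2.64 and 3.46% of the Cd4 window (mean 3.05% ± 0.583, SD, n = 2) and none of both Cd8 windows, against medians of 0.605 and 0.702%. In this set 91.6 and 94.5% of all genes had a share at or below that of Cd4 in replicates 1 and 2. For H3K27ac 89 and 90.3% did so, and for H3K4me3 79.9 and 77.4%. The base pairs around Cd4 therefore lay in the upper part of the background, although the gene itself held none of them. In replicate 1, 1255 of the 5789 bp of H3K4me3 and 4659 of the 8573 bp of H3K27ac lay between Cd4 and Lag3. Of these, 372 bp of H3K4me3 and 3321 bp of H3K27ac lay in intervals that touched no gene. All other base pairs of both marks in the window lay in intervals that touched Lag3 or other neighbouring genes. For these 4 sets the gap between the Cd4 and the Cd8 windows was larger than the spread between replicates. The marked starts of Krcc1 and Rmnd5a fell outside the Cd8 windows. How far the gap depends on which neighbouring genes fall in a window was not tested.

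**Figure D3:**
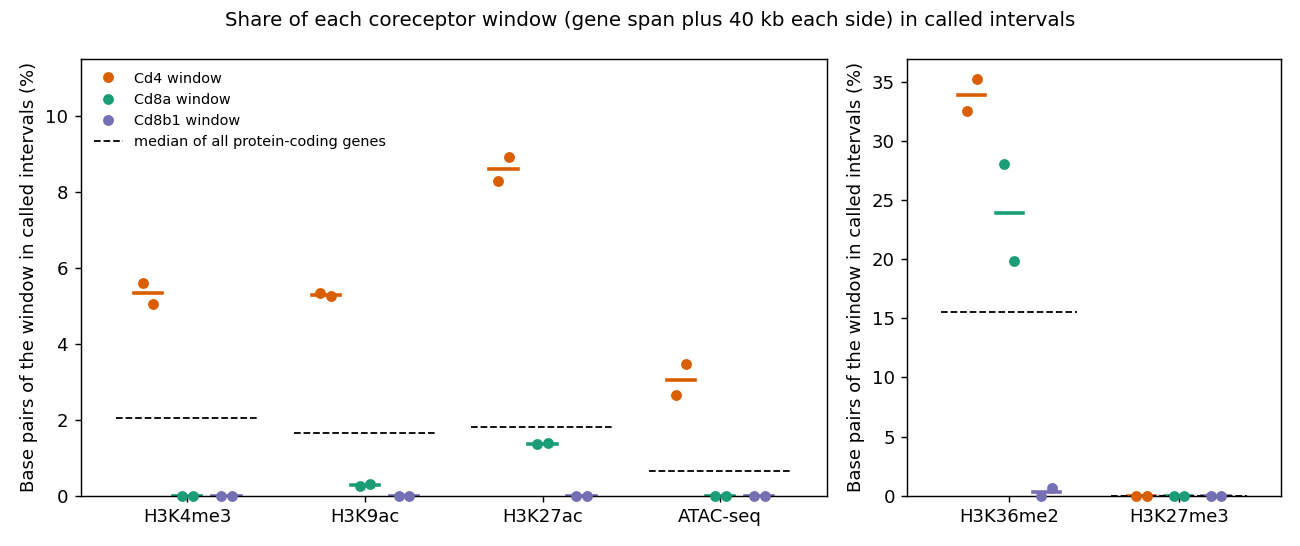
Share of base pairs in called intervals, in percent, for the windows of Cd4, Cd8a and Cd8b1 (points are replicates, short bars their mean) and the median over the windows of all protein-coding genes (dashed, mean of both replicates). The Cd4 points of H3K4me3, H3K9ac, H3K27ac and ATAC-seq lie above the dashed line and those of Cd8a and Cd8b1 below it.

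H3K36me2 covered 32.5 and 35.2% of the Cd4 window, 28 and 19.8% of the Cd8a window and 0.0127 and 0.646% of the Cd8b1 window, against medians of 15.6 and 15.4%. The order of Cd4, Cd8a and Cd8b1 was the same in both replicates, and the spread was largest for Cd8a (mean 23.9% ± 5.77, SD, n = 2). In the joined Cd8 window the base pairs of H3K36me2 had a Jaccard index of 0.424 between replicates, and in the Cd4 window of 0.51. H3K27me3 covered none of the 3 windows in either replicate, and its median over all genes was also 0.

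The neighbours of the coreceptor genes differed in the same lists. Of the 10 other protein-coding genes that touch the windows, 6 had H3K4me3, H3K9ac and H3K27ac in both replicates at their start, or at either end where no strand is given, beside 43.7% of all protein-coding genes. These were Usp5, a deubiquitinase gene, Gpr162, Lag3 and Ptms beside Cd4, and Krcc1 and Rmnd5a beside the Cd8 genes. For Usp5 and Lag3 these marks lay at the lower-coordinate end alone, and for Gpr162 at the higher-coordinate end alone. No strand is given for these genes, so the marked end may not be the start, as with Cd4. Cdca3 and Gnb3 had H3K36me2 alone in both replicates, P3h3 had ATAC-seq and H3K36me2 in 1 replicate each, and Gm1070, which lies between Krcc1 and Cd8b1, had none of the 6 sets. The empty stretch thus took in Gm1070 as well as Cd8b1 and Cd8a.

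The genes known to act on or with the coreceptors were marked at most of their starts. Of 20 such genes, 18 had H3K4me3, H3K9ac and H3K27ac in both replicates at the start, and 17 had ATAC-seq as well, against 43.7 and 39.4% of all protein-coding genes. The 20 genes were chosen with earlier results of these data known, so these counts only describe them. They included Lck, the kinase bound by both coreceptors, and Zbtb7b and Runx3, the factors that favour the CD4 and the CD8 fate. At the start of Zbtb7b, and of Runx3, H3K4me3, H3K9ac, H3K27ac and ATAC-seq were each found in both replicates. Of the broad marks, H3K36me2 at the start was in both replicates for Runx3 and in 1 for Zbtb7b, and H3K27me3 was called within Runx3 in both replicates and not within Zbtb7b. Runx1 and Cbfb, a Runx protein and the partner of Runx proteins at the Cd4 silencer, likewise had H3K4me3, H3K9ac, H3K27ac and ATAC-seq in both replicates at the start. Patz1, Tox, Bcl11b, Tcf7, Ikzf1, Myb and Tcf3 also had these 4 sets in both replicates.

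Exceptions were few. Gata3, a factor needed for CD4 T cells, had the 3 histone marks in both replicates and ATAC-seq in 1. At its ends Ets1 had only H3K36me2, in both replicates at the lower-coordinate end and in 1 at the other, and all active marks in both replicates inside the gene. Satb1, a genome organiser that acts on the coreceptor genes in thymocytes, had no interval of any set at its start and within its 97.1 kb only H3K27me3 in 1 replicate. Lef1 was the only 1 of the 20 genes with H3K27me3 in both replicates at the start, together with H3K4me3, H3K9ac, H3K27ac and ATAC-seq.

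**Figure D4:**
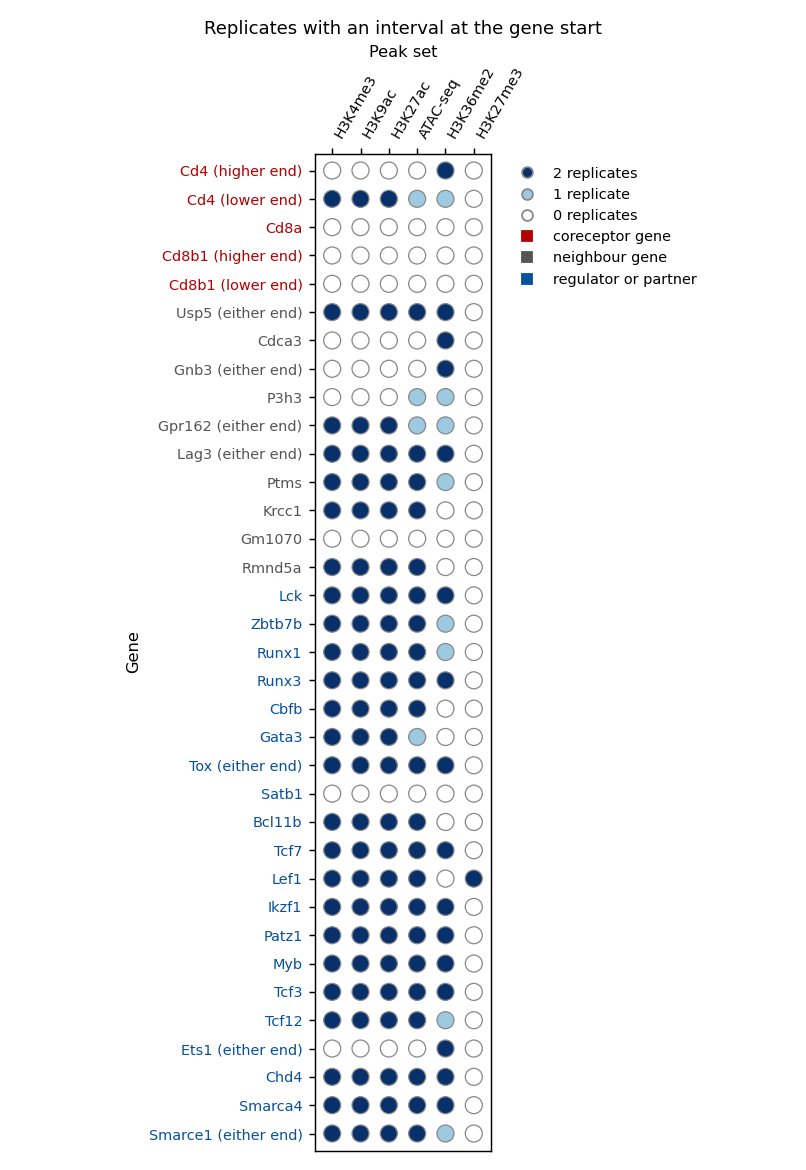
Number of replicates (0, 1 or 2, from white to dark blue) with an interval of each set at the start of the coreceptor genes, their 10 neighbours and 20 genes that act on or with them, with each end shown for Cd4 and Cd8b1. For the other genes without a strand, either end counted. Cd8a and both ends of Cd8b1 are empty, the higher end of Cd4 has H3K36me2 alone, and 18 of the 20 lower genes have H3K4me3, H3K9ac and H3K27ac in both replicates.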

How the data were processed

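ChIP-seq, ATAC-seq and RNA-seq libraries of EL4 cells were mapped to groups from their titles. Libraries of input DNA and RNA were left out. According to the methods, the authors aligned reads with STAR (version 2.5 in the submitters' processing notes) to GRCm38, kept unique alignments, treated duplicates with Picard, and called the peaks of each replicate, with Epic for the broad marks H3K36me2 and H3K27me3 and with macs2 for the rest. Input served as the ChIP-seq control. The deposited lists give chromosome, start and end of each interval in base pairs, without score, count or normalization. Epic intervals lie on bins of 200 bp, so their borders are no finer than this, and a threshold decides whether weak signal is listed at all.

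Positions were written 1-based. Gene spans are those of GRCm38.p6, and strands come from the RefSeq promoter table, which held 79.9% of the 21631 protein-coding genes on chromosomes 1 to 19 and X. An interval counted with 1 bp of overlap. The start window follows the methods of the study. Where the table gave no strand, either gene end counted. The alternatives are given in the closing section. Named genes are the coreceptor genes, all protein-coding genes touching their windows, and 20 genes that act on or with the coreceptors. The members and lists were chosen with earlier results of these data known. Counting was checked against bedtools 2.31.1 in 500 simulated windows, of which 0 differed. Python 3.11.15 with numpy 2.4.6, pandas 2.3.3 and matplotlib 3.10.9 was used.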

Additional observations from a re-analysis of the deposited data

How the results depend on the processing

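The counts of sets in the gene spans and at the gene starts of Cd4, Cd8a and Cd8b1 stayed within 1.5 times of the reported counts when either replicate sufficed, when each replicate was left out, with intervals of at least 500 bp, with 200 bp of overlap and with 1 kb to either side of the start. The exception, chosen after the data were examined, was Cd4 at the end that is its start by textbook knowledge, with 1 set in place of 4. Counting base pairs covered in both replicates gave, in the Cd4 window, an H3K4me3 share of 4.92%, an H3K9ac share of 4.94%, an H3K27ac share of 8.13%, an ATAC-seq share of 2.36% and an H3K36me2 share of 22.9%. In the joined Cd8 window it gave 0.155% for H3K9ac, 0.831% for H3K27ac and 9.08% for H3K36me2. With a flank of 20 kb the Cd4 window had shares of 4.46% (H3K4me3), 5.7% (H3K9ac), 10.2% (H3K27ac) and 31.5% (H3K36me2), and the Cd8 window 0% for H3K9ac, 0% for H3K27ac and 7.02% for H3K36me2. The sets at 0 in a window stayed at 0 in both of these settings. Depth is unknown, so whether a missing interval reflects few reads was not tested. No paired analysis was possible because the values come from no test and the replicates share only a number.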
